A study of Mus musculus with 15 samples.

Results

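Adrenergic receptors are the cell-surface receptors for noradrenaline and adrenaline. Of the 8 receptor genes looked for (Adra1a, Adra1b, Adra1d, Adra2a, Adra2b, Adra2c, Adrb1 and Adrb3), 2 were measured by a probe set that names exactly 1 gene, namely Adra1b and Adra2c, among 22180 genes in all. The other 6 were not analysed here, so what follows covers alpha receptors only. The 2 genes had 1 probe set each, 17261982 for Adra1b and 17436823 for Adra2c. They were chosen by name, with earlier results of these data known.

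Labelled total RNA from mouse aorta was hybridised to 15 arrays. The mice, of the inbred strain DBA/2NCrl and aged 8 weeks at the start, were fed for 5 days either high phosphate (20.2 g phosphorus in each kg of feed) or chow (7.0 g). The groups were thoracic aorta on high phosphate (n = 3), thoracic aorta on chow (n = 4), abdominal aorta on high phosphate (n = 4) and abdominal aorta on chow (n = 4), described as biological replicates. The labels do not say if a mouse gave both segments. They name no allele or drug for any group, and precision is limited by how few arrays there are.

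Noradrenaline reaches the aorta from sympathetic nerve endings in the outer wall, and adrenaline reaches it from the adrenal medulla through the blood. Alpha-1 receptors couple to Gq proteins, which release calcium and make smooth muscle contract. Alpha-2 receptors couple to Gi proteins, which restrain cAMP formation, and on sympathetic nerve endings and adrenal chromaffin cells they hold back the release of more transmitter. Beta receptors couple to Gs proteins and raise cAMP, and in brown fat, which surrounds the mouse aorta, that signal drives heat production.

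The values below are log2 intensities, which rank samples for 1 probe set and do not compare 1 gene with another. A gene was called where limma's test across all 22180 genes gave an adjusted p under 0.05 (Benjamini-Hochberg, two-sided). Neither receptor was called in any of the 6 contrasts. At an unadjusted p under 0.05 there was 1 receptor in the abdominal diet comparison, 1 in the thoracic one and 1 between segments on high phosphate, and 0 in the other contrasts. At that threshold stood 20% of all genes in the abdominal diet comparison, 13.8% in the thoracic one and 28.1% between segments on high phosphate. Over all genes, 7.01% were called in the abdominal diet comparison (1.95% higher, 5.06% lower), 2.47% in the thoracic one (1.39% higher, 1.08% lower) and 10.7% for the average of both (4.53% higher, 6.18% lower). Between the segments, thoracic minus abdominal, 13.8% were called on high phosphate (7.57% higher, 6.25% lower) and 4.78% on chow (1.76% higher, 3.02% lower). For the difference between the 2 diet changes limma called 0 genes, and 1217 had an unadjusted p under 0.05. Both probe sets were dim, with means over the arrays of 5.46 for Adra1b and 5.13 for Adra2c, against 5.24 at the 30th percentile of genes. Adra1b alone passed a filter at that percentile. Signal over background is unknown for this platform's deposited values, and differences of dim probe sets can be understated.

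Adra1b encodes the alpha-1B receptor, a Gq-coupled receptor that is also abundant in mouse liver. In thoracic aorta its log2 intensity was 5.49, 5.75 and 5.20 in high-phosphate arrays 1 to 3, against 5.38, 5.24, 5.66 and 5.44 in chow arrays 1 to 4. The 2 groups overlapped over most of their range. In abdominal aorta it was 5.57, 5.50, 5.56 and 5.84 in high-phosphate arrays 1 to 4, against 5.375, 5.52, 5.26 and 5.15 in chow arrays 1 to 4. Here 3 of the 4 high-phosphate arrays lay above every chow array, and array 2 lay just below chow array 2.

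**Figure D1:**
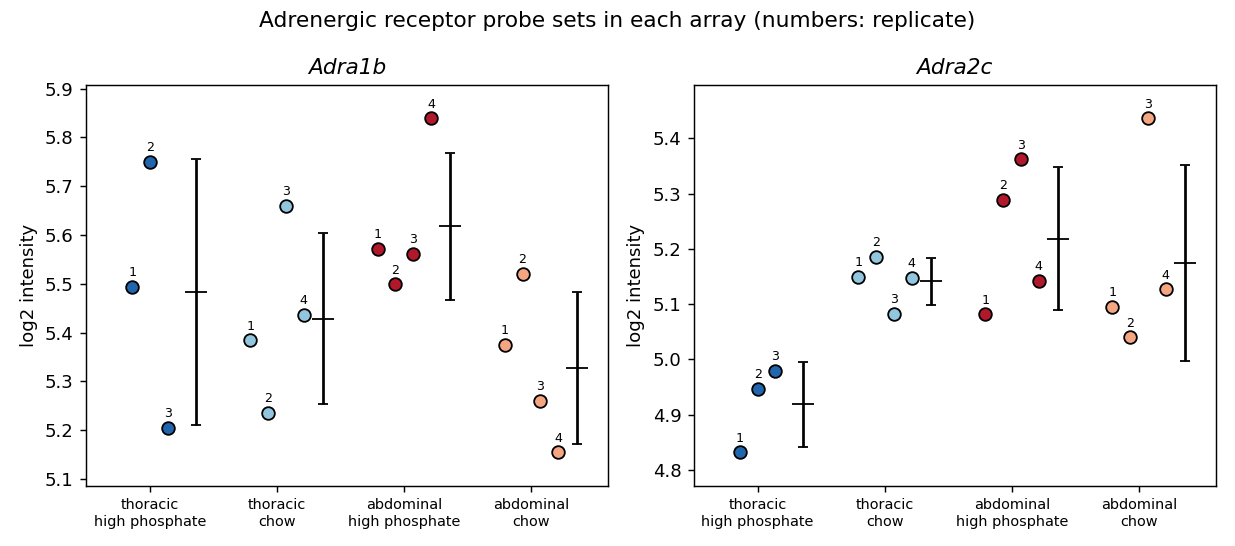
Log2 intensity of Adra1b (left) and Adra2c (right) in each array, by group, with the replicate number above each point and the group mean ± SD as the bar beside it. The 3 thoracic high-phosphate arrays of Adra2c lie between 4.83 and 4.98, below all other arrays, and the groups of Adra1b overlap.

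For Adra1b the group means were 5.48 ± 0.273 in thoracic high-phosphate aorta (SD, n = 3) and 5.43 ± 0.176 in thoracic chow aorta (n = 4). They were 5.62 ± 0.151 in abdominal high-phosphate aorta (n = 4) and 5.33 ± 0.157 in abdominal chow aorta (n = 4). In descending order the groups ran abdominal high phosphate, thoracic high phosphate, thoracic chow and abdominal chow, and each overlapped with the next. The steps between neighbours were 0.14, 0.05 and 0.10, smaller than the SD of at least 1 of the groups compared.

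The abdominal diet change of Adra1b, high phosphate minus chow, was 0.29 ± 0.127 (SE), or 1.22-fold, with an unadjusted p of 0.0373 and an adjusted p of 0.214 by limma. Its 95% interval ran from 0.02 to 0.56, which leaves room for up to a 1.48-fold difference. The thoracic diet change was 0.05 ± 0.137, with an adjusted p of 0.936 and an interval from -0.24 to 0.35. The abdominal change minus the thoracic change was 0.24 ± 0.187 (adjusted p = 0.893), so the data do not separate the 2 segments. The average over both segments was 0.17 ± 0.0934 (adjusted p = 0.3).

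Abdominal high-phosphate array 4, the highest of all for Adra1b, also had the highest level of liver genes. The mean of 10 hepatocyte genes, such as albumin (Alb), was 10.6 in that array and 8.74 in abdominal high-phosphate array 3. It was between 5.44 and 6.84 in the other arrays. Array 3 had an Adra1b value of 5.56, close to those of arrays 1 and 2. Without arrays 3 and 4 the abdominal difference was 0.21 ± 0.154 (adjusted p = 0.508). The part of liver RNA in the difference was not tested further.

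Between the segments Adra1b differed little. Thoracic minus abdominal was -0.14 ± 0.137 on high phosphate (adjusted p = 0.562, interval -0.43 to 0.16) and 0.10 ± 0.127 on chow (adjusted p = 0.706, interval -0.17 to 0.37). The mean of 10 smooth muscle genes was 9.16 to 9.36 in thoracic and 8.12 to 8.76 in abdominal arrays on high phosphate, with 10 of 10 called higher on high phosphate and 5 of 10 on chow. A difference in the share of smooth muscle cells and one in RNA per cell cannot be told apart in such bulk samples.

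Adra2c encodes the alpha-2C receptor, a Gi-coupled receptor that in mice curbs adrenaline release from chromaffin cells and noradrenaline release from sympathetic nerves. In thoracic aorta its log2 intensity was 4.83, 4.95 and 4.98 in high-phosphate arrays 1 to 3, against 5.15, 5.18, 5.08 and 5.15 in chow arrays 1 to 4. Every high-phosphate array lay below every chow array, and 13.8% of all genes had groups that did not overlap in this comparison. In abdominal aorta it was 5.08, 5.29, 5.36 and 5.14 in high-phosphate arrays 1 to 4, against 5.10, 5.04, 5.44 and 5.13 in chow arrays 1 to 4. These groups covered nearly the same range, with chow array 3 the highest.

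For Adra2c the group means were 4.92 ± 0.0772 in thoracic high-phosphate aorta (SD, n = 3) and 5.14 ± 0.0428 in thoracic chow aorta (n = 4). They were 5.22 ± 0.129 in abdominal high-phosphate aorta and 5.17 ± 0.178 in abdominal chow aorta (n = 4 each). In descending order the groups ran abdominal high phosphate, abdominal chow, thoracic chow and thoracic high phosphate. The first 3 overlapped and were 0.04 and 0.03 apart, and the step to thoracic high phosphate was 0.22, with no overlap.

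The thoracic diet change of Adra2c, high phosphate minus chow, was -0.22 ± 0.101 (SE), or 1.17-fold lower, with an unadjusted p of 0.0448 and an adjusted p of 0.346 by limma. Its interval ran from -0.44 to -0.006. The abdominal diet change was 0.04 ± 0.0938 (adjusted p = 0.854), with an interval from -0.16 to 0.24, a fold between 0.897 and 1.18. The abdominal change minus the thoracic change was 0.27 ± 0.138, with an unadjusted p of 0.0735 and an adjusted p of 0.879. Their average was -0.09 ± 0.069 (adjusted p = 0.505).

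**Figure D2:**
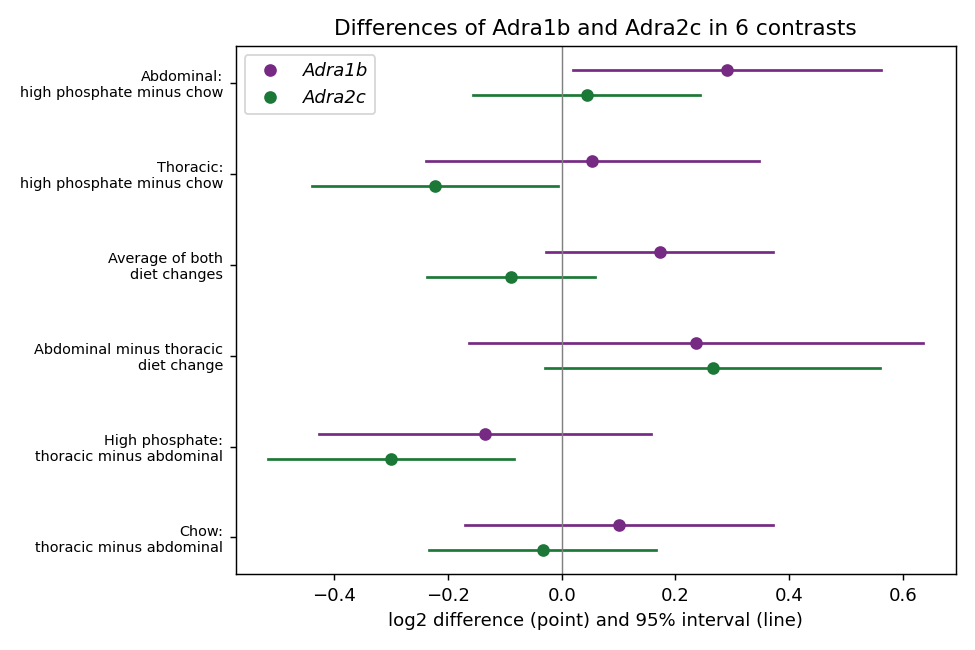
Log2 difference (points) with its 95% interval (lines) of Adra1b and Adra2c in the 6 contrasts, on a log2 axis with 0 marked. All differences lie between -0.30 and 0.29, and 3 of the 12 intervals leave out 0 before adjustment over all genes.

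The largest difference of Adra2c among the 6 contrasts was that between the segments on high phosphate. Thoracic minus abdominal was -0.30 ± 0.101, or 1.23-fold lower, with no overlap of the arrays. In that comparison 23.8% of all genes had groups that did not overlap. The adjusted p was 0.0627, just above the threshold. It was under 0.05 with quantile normalization (0.0492), with array weights (0.042) and without abdominal chow array 3 (0.0311). Chow array 3 is outside this comparison, and its omission left the difference at -0.30 with an SE of 0.0845. Omission of 1 array in turn gave an adjusted p of 0.0311 to 0.191. Without abdominal high-phosphate arrays 3 and 4, the 2 with liver genes, the difference was -0.27 ± 0.123 (adjusted p = 0.172). Without 5 abdominal arrays rich in T and NK cell genes, 1 abdominal high-phosphate array was left and the difference was -0.44. The 5 arrays were high-phosphate arrays 1, 2 and 4 and chow arrays 2 and 4, in which the mean of 12 such genes was 7.75 to 8.58, against 5.54 to 6.23 in the other 10 arrays. On chow the difference was -0.03 ± 0.0938 (adjusted p = 0.88), with an interval from -0.23 to 0.17.

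Genes of sympathetic nerve cells and chromaffin cells, which express Adra2c, were lower in thoracic than in abdominal aorta. The mean of 13 such genes lay between 5.70 and 7.03 in the thoracic high-phosphate arrays and between 5.78 and 5.89 in the thoracic chow arrays. It lay between 8.85 and 9.39 in the abdominal high-phosphate arrays and between 7.98 and 9.57 in the abdominal chow arrays. Thoracic minus abdominal, 13 of the 13 were called lower on high phosphate and 12 on chow. On chow the interval of Adra2c ran from a fold of 0.851 to 1.12. Within the abdominal segment Adra2c was highest in chow array 3 and in high-phosphate arrays 3 and 2, whose list means were 9.57, 9.39 and 9.22. In high-phosphate arrays 4 and 1 Adra2c was 5.14 and 5.08, with list means of 8.85 and 9.15. In chow arrays 4, 1 and 2 it was 5.13, 5.10 and 5.04, with list means of 9.30, 8.38 and 7.98. The part of nerve tissue in the Adra2c values was not tested.

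**Figure D3:**
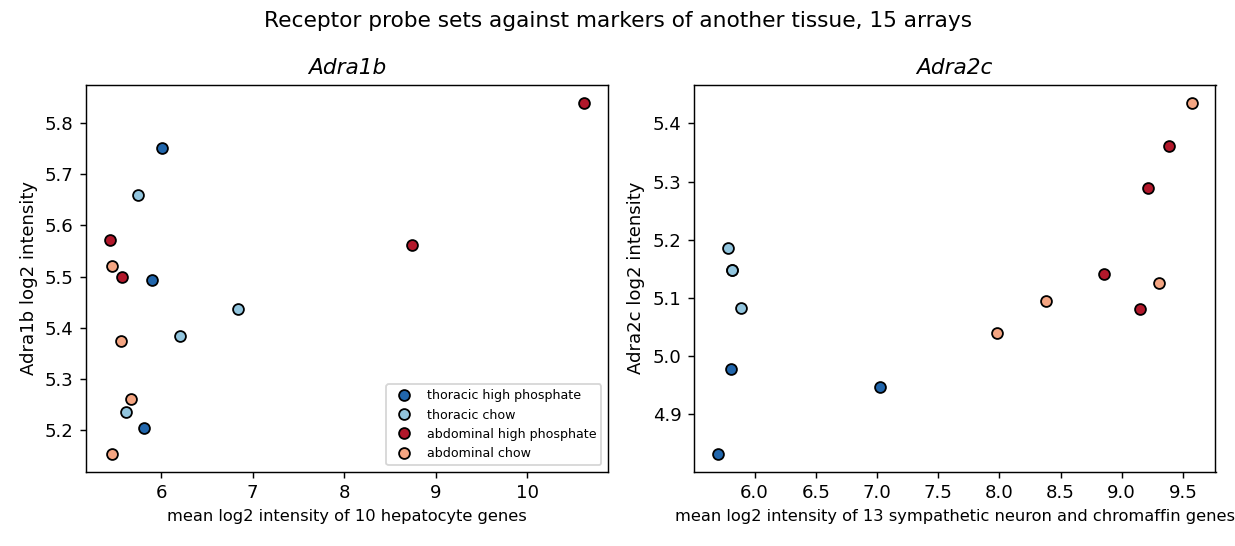
Each point is 1 of the 15 arrays. Left, Adra1b log2 intensity against the mean log2 intensity of 10 hepatocyte genes; right, Adra2c log2 intensity against that of 13 sympathetic neuron and chromaffin genes. The array with a hepatocyte mean of 10.6 is the highest for Adra1b, and the 3 thoracic high-phosphate arrays are the lowest for Adra2c.

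Most of the genes that make, store and clear the ligands were lower in thoracic aorta, and none of the list was called by diet. Of 10 measured genes of catecholamine synthesis and clearance, 8 were lower in thoracic than in abdominal aorta on each diet. Over all genes 6.25% were called lower on high phosphate and 3.02% on chow. The list's median difference, thoracic minus abdominal, was -2.44 on high phosphate and -2.30 on chow, against 0.04 and 0.03 over all genes. The count was 7 or 8 under every alternative, and 5 of the 10 genes are also sympathetic and chromaffin markers. Dbh, the enzyme that converts dopamine to noradrenaline, was 5.48, 7.45 and 6.10 in thoracic high-phosphate arrays 1 to 3, against 9.96, 9.87, 10.06 and 9.49 in abdominal high-phosphate arrays 1 to 4. It was 5.05, 5.72, 5.30 and 5.59 in thoracic chow arrays 1 to 4, against 9.27, 8.69, 10.36 and 9.98 in abdominal chow arrays 1 to 4. The thoracic and abdominal arrays did not overlap, and thoracic high-phosphate array 2 was the highest thoracic array. Between the segments 23.8% of all genes had groups without overlap on high phosphate and 12% on chow.

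Thoracic minus abdominal, Dbh differed by -3.50 ± 0.407 on high phosphate (adjusted p = 0.000183) and by -4.16 ± 0.376 on chow (adjusted p = 2.85e-05). Th, the rate-limiting enzyme of the pathway, differed by -2.64 ± 0.319 on high phosphate and -2.68 ± 0.295 on chow. Slc18a2, the transporter that loads transmitter into vesicles, differed by -3.02 ± 0.355 on high phosphate and -3.00 ± 0.329 on chow. Maoa, which breaks the transmitter down, differed by -2.24 ± 0.278 on high phosphate and -2.45 ± 0.258 on chow. Maob, of the same list, was not called on either diet. Its mean was 8.94 in thoracic and 8.90 in abdominal aorta on high phosphate, and 8.90 and 9.04 on chow. Pnmt, which makes adrenaline from noradrenaline and marks adrenaline-producing chromaffin cells, stayed between 3.78 and 4.19 in all arrays (adjusted p of 0.628 between segments on high phosphate and 0.925 on chow). The mean of 8 adrenal cortex genes was 5.20 to 5.31 in the thoracic arrays, with 0 of them called between segments on either diet. It was 5.81 in abdominal high-phosphate array 2 and 5.02 to 5.28 in the other abdominal arrays. Adra2c was 5.29 in that array 2, and the part of adrenal tissue in this value was not tested. By diet, 0 of the 10 catecholamine genes were called in either segment, with median changes of 0.14 in thoracic and 0.18 in abdominal aorta.

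Of the G proteins through which the measured receptors signal, part of the Gi family differed by segment as well. Of 5 genes, Gnao1 and Gnaz, both abundant in neurons, were lower in thoracic aorta on each diet. Gnai1, Gnai2 and Gnai3 were not called, and the list's median difference was -0.10 on each diet. Over all genes 6.25% were called lower in thoracic aorta on high phosphate and 3.02% on chow. Gnao1 was 7.58, 7.66 and 7.51 in thoracic high-phosphate arrays 1 to 3, against 8.69, 8.72, 8.88 and 8.44 in abdominal high-phosphate arrays 1 to 4. Thoracic minus abdominal was -1.10 ± 0.214 on high phosphate (adjusted p = 0.0041) and -1.10 ± 0.199 on chow (adjusted p = 0.00468). Gnaz differed by -0.49 ± 0.123 on high phosphate (adjusted p = 0.0173) and by -0.53 ± 0.114 on chow (adjusted p = 0.0149). The Gnaz call ended, leaving 1 of the 5, without abdominal high-phosphate array 2 or thoracic high-phosphate array 1 or 3 on that diet, without abdominal chow array 3 or 4 on chow, and on both without the 5 abdominal arrays rich in T and NK cell genes. No Gi gene was called by diet in either segment. The part of nerve tissue in the Gnao1 and Gnaz differences was not tested.

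The Gq cascade serves Adra1b. Over all genes the diet called 7.01% in abdominal aorta and 2.47% in thoracic aorta. Of 12 measured Gq genes it called 1 in abdominal aorta and 0 in thoracic aorta, near those shares. The gene was Plcb1, a phospholipase that acts on membrane lipid to release calcium from stores (-0.48 ± 0.127, adjusted p = 0.0327), and 7 of 26 alternatives ended its call. These were the fit of the compared groups alone, the omission of abdominal high-phosphate array 1, 2 or 4 or abdominal chow array 1 or 2, and that of the 5 arrays. Without abdominal high-phosphate array 3 the abdominal count was 2. The alpha subunits Gnaq and Gna11 were not called in any contrast. Gna14, another alpha subunit, was called lower in thoracic than in abdominal aorta on high phosphate (-0.58), and 15 of 26 alternatives ended that call. Prkca, a kinase activated at the end of this cascade, was lower in thoracic aorta on high phosphate (-0.94 ± 0.159, adjusted p = 0.00168) and on chow (-0.70 ± 0.148, adjusted p = 0.0126; 0.0508 without abdominal chow array 4). Between the segments 7.57% of all genes were higher and 6.25% lower on high phosphate, and 1.76% higher and 3.02% lower on chow. Of the 12 genes, 2 were higher and 5 lower in thoracic aorta on high phosphate, and 0 higher and 1 lower on chow. On high phosphate the higher genes were the phospholipases Plcb4 (0.39 ± 0.0959, adjusted p = 0.015) and Plcb1 (0.50 ± 0.137, adjusted p = 0.0241). The lower ones included, besides Prkca, the kinase Prkcb (-1.56 ± 0.386, adjusted p = 0.0157), the calcium channel Itpr3 (-0.47 ± 0.132, adjusted p = 0.0271) and the phospholipase Plcb2 (-0.90 ± 0.284, adjusted p = 0.0467). Prkcb and Plcb2 are abundant in white blood cells. Of 12 T and NK cell genes 10 were lower in thoracic aorta on high phosphate and 0 on chow, and their part in these differences was not tested. On high phosphate the lower count was 1 to 3 without abdominal array 1, 2 or 4, any 1 thoracic high-phosphate array, or thoracic chow array 1, 2 or 3. The higher count was 0 or 1 without abdominal array 1, 2 or 4 or any 1 thoracic high-phosphate array. Without the 5 arrays 1 was lower and 0 higher. On chow the lower count was 2 without abdominal array 1 and 3 without abdominal array 2.

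A diet change beside the receptors was that of Grk3, a kinase that phosphorylates activated receptors, beta-adrenergic ones among them, so that arrestins bind and signalling stops. Grk3 was 7.12, 6.37 and 6.33 in thoracic high-phosphate arrays 1 to 3, against 7.65, 8.06, 7.58 and 7.45 in thoracic chow arrays 1 to 4. It was 7.35, 7.46, 7.51 and 7.39 in abdominal high-phosphate arrays 1 to 4, against 7.88, 7.765, 7.99 and 7.74 in abdominal chow arrays 1 to 4. In both segments every high-phosphate array lay below every chow array. Groups did not overlap for 13.8% of all genes in the thoracic diet comparison and 11.9% in the abdominal one. The diet change was -1.08 ± 0.169 in thoracic aorta (adjusted p = 0.00399), and Grk3 fell there under all 26 alternatives. In abdominal aorta it was -0.42 ± 0.157 and not called (adjusted p = 0.137). The average over both segments fell by 0.75 ± 0.115 (adjusted p = 0.000553), and the abdominal change minus the thoracic one was 0.66 ± 0.231 (adjusted p = 0.879). On high phosphate Grk3 was also lower in thoracic than in abdominal aorta (-0.82 ± 0.169, adjusted p = 0.00596). Without the 5 arrays rich in T and NK cell genes the adjusted p was 0.193, and over all 26 alternatives the difference stayed between -1.07 and -0.68. In thoracic aorta Grk3 was the one called by diet of 9 measured kinases, arrestins and RGS proteins, against 2.47% of all genes. The arrestin genes Arrb1 and Arrb2 were not called in any contrast. Rgs5 is a brake on Gq and Gi proteins in smooth muscle and pericytes. In abdominal aorta, where the diet called 7.01% of all genes, Rgs5 was the one called (-0.31 ± 0.0713, adjusted p = 0.0142). That call ended with the compared groups alone, without high-phosphate array 2 or chow array 1, and without the 5 arrays. The abdominal count was 2 without abdominal chow array 4 or thoracic high-phosphate array 1. Between the segments on high phosphate the kinase Grk5 was higher in thoracic aorta (0.64 ± 0.154, adjusted p = 0.013) and Rgs4, another RGS protein, was lower (-0.96 ± 0.244, adjusted p = 0.0178), besides Grk3. On chow 0 of the 9 were called. Without the 5 arrays 0 were called higher and 0 lower on high phosphate, and the Grk5 call also ended without thoracic array 3. The lower count was 4 without abdominal array 3 and 1 without thoracic array 2 or 3.

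**Figure D4:**
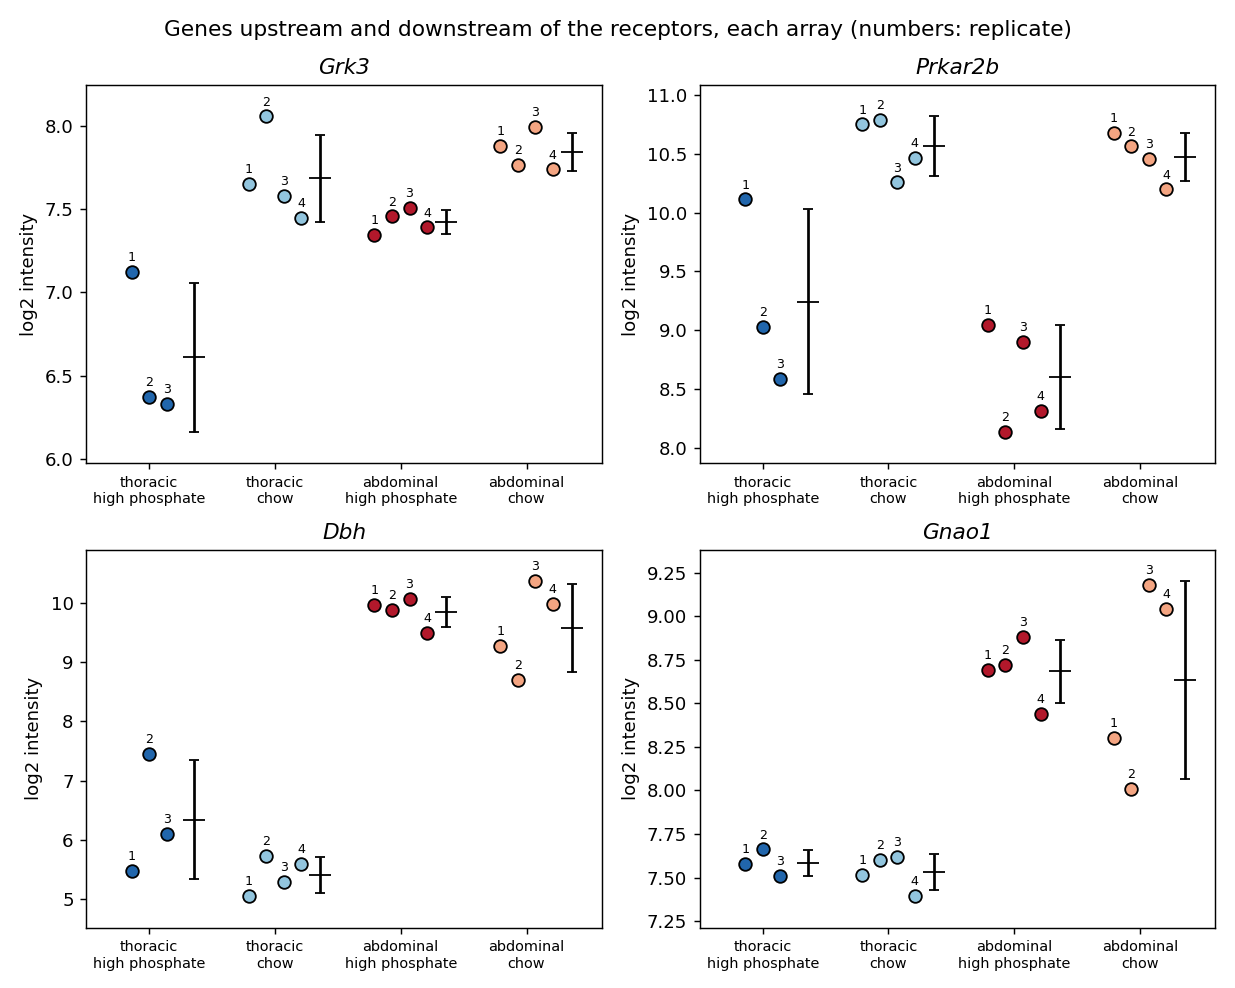
Log2 intensity in each array, by group, of the receptor kinase gene Grk3, the protein kinase A subunit gene Prkar2b, the noradrenaline-forming enzyme gene Dbh and the G protein gene Gnao1, with replicate numbers and the group mean ± SD. For Grk3 and Prkar2b every high-phosphate array lies below every chow array of its segment, and for Dbh and Gnao1 every thoracic array lies below every abdominal array.

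Downstream of beta receptors, 1 of 22 measured genes of the Gs and cAMP cascade fell in thoracic aorta and 5 fell in abdominal aorta. List medians were -0.07 and -0.04, and none was called higher. Over all genes the diet called 1.08% lower in thoracic and 5.06% lower in abdominal aorta. No gene was called for a difference between the 2 diet changes. Prkar2b, which encodes a protein kinase A subunit common in fat, was 10.11, 9.03 and 8.58 in thoracic high-phosphate arrays 1 to 3, against 10.75, 10.79, 10.26 and 10.46 in thoracic chow arrays 1 to 4. It fell by 1.33 ± 0.293 in thoracic aorta (adjusted p = 0.0264), a call that 6 of 26 alternatives ended, among them the omission of high-phosphate array 2 or 3 or of chow array 1, 2 or 4. In abdominal aorta Prkar2b was 9.05, 8.14, 8.90 and 8.31 in high-phosphate arrays 1 to 4, against 10.7, 10.6, 10.5 and 10.2 in chow arrays 1 to 4. It fell by 1.88 ± 0.271 there (adjusted p = 0.000565). The others that fell in abdominal aorta were the catalytic subunit Prkaca (-0.65 ± 0.117), the phosphodiesterase Pde3b (-0.85 ± 0.167), the adenylyl cyclase Adcy6 (-0.53 ± 0.131) and the phosphodiesterase Pde4a (-0.40 ± 0.105). The abdominal count was 3 without high-phosphate array 2 or 4 or chow array 1, and 0 without the 5 arrays rich in T and NK cell genes, a fit with 1 high-phosphate array left that is assumed to vary like the other groups. Over all 26 alternatives the abdominal change stayed between -2.02 and -1.66 for Prkar2b, -0.93 and -0.73 for Pde3b, -0.58 and -0.46 for Adcy6, -0.47 and -0.30 for Pde4a, and -0.78 and -0.32 for Prkaca. Between the segments 5 genes were higher and 3 lower in thoracic aorta on high phosphate, and 0 were called on chow. Over all genes 7.57% were higher and 6.25% lower on high phosphate, and 4.78% were called on chow. Of 13 cardiac muscle genes 10 were higher in thoracic aorta on high phosphate and 9 on chow. Their mean was 8.06 to 8.40 in thoracic and 6.06 to 6.23 in abdominal arrays on high phosphate. Also higher in thoracic aorta on high phosphate were 10 of 10 smooth muscle, 7 of 11 brown adipocyte and 5 of 11 general fat cell genes. On chow these counts were 5, 1 and 0. By diet 10 of 11 brown adipocyte and 5 of 11 general fat cell genes were lower in abdominal aorta. In thoracic aorta these counts were 5 and 1. The part of all these markers in the cascade's differences was not tested. The higher ones of the cascade included the adenylyl cyclases Adcy5 (1.01 ± 0.184, adjusted p = 0.00271) and Adcy9 (0.45 ± 0.131), the phosphodiesterase Pde3a (0.42 ± 0.119) and Prkaca (0.43 ± 0.126). The lower ones were the phosphodiesterase Pde4b (-0.47 ± 0.126), the cyclase Adcy2 (-0.54 ± 0.152) and the kinase subunit Prkar1b (-0.41 ± 0.124). On high phosphate the higher count was 1 to 3 without abdominal array 1, 2 or 4 or thoracic array 1 or 2, the lower count was 0 or 1 without abdominal array 1 or 2 or thoracic array 1 or 2, and both were 0 without the 5 arrays.

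Of 10 heat-producing and lipolytic genes listed as downstream of beta receptors, 7 fell in abdominal aorta and 2, Ucp1 and Dio2, in thoracic aorta. Of all genes 5.06% were called lower by diet in abdominal aorta and 1.08% in thoracic aorta. No beta receptor was analysed here, and beta signalling was not tested. Ucp1, the uncoupling protein that turns fuel into heat, had a log2 intensity of 8.84 to 10.3 in thoracic high-phosphate arrays, against 11.68 to 11.97 in thoracic chow arrays. It was 7.01 to 9.03 in abdominal high-phosphate arrays, against 11.4 to 11.8 in abdominal chow arrays, and the groups did not overlap in either segment. Groups were without overlap for 13.8% of all genes by diet in thoracic aorta and 11.9% in abdominal aorta. Ucp1 fell in both segments, with a change of -2.26 ± 0.396 in thoracic aorta (adjusted p = 0.00802) and -3.61 ± 0.367 in abdominal aorta (adjusted p = 5.7e-05). Dio2 makes active thyroid hormone in brown fat. Its change was -1.02 ± 0.203 in thoracic aorta (adjusted p = 0.0166) and -1.02 ± 0.188 in abdominal aorta (adjusted p = 0.00348). In abdominal aorta the fall included Plin1, which coats lipid droplets (-1.71 ± 0.219, adjusted p = 0.000237), Lipe, hormone-sensitive lipase (-0.99 ± 0.161, adjusted p = 0.00124), and Cidea, a droplet protein of brown fat (-0.91 ± 0.146, adjusted p = 0.00126). The abdominal count was 2 without the 5 arrays rich in T and NK cell genes, and these were Ucp1 and Dio2. Over all 26 alternatives the abdominal change stayed between -1.85 and -1.61 for Plin1, -1.08 and -0.92 for Lipe, and -1.05 and -0.67 for Cidea. The thoracic count was 4 without high-phosphate array 1 and 1 without high-phosphate array 2 or 3 or chow array 1. Between the segments 7.57% of all genes were called higher in thoracic aorta on high phosphate. Of the 10 listed genes 5 were higher there, among them Ucp1 (1.60 ± 0.396, adjusted p = 0.0155), Cidea (0.80 ± 0.158), Lipe (0.80 ± 0.173) and Plin1 (0.86 ± 0.237). That count was 3 without abdominal array 2 or 4 or thoracic array 1, 2 without thoracic array 2 and 0 without the 5 arrays, and on chow 0 were called. Of the 10 genes 8 are also fat cell markers. The mean of 11 brown adipocyte genes was 7.80 to 8.34 in thoracic high-phosphate arrays against 8.85 to 9.10 in thoracic chow arrays, and 7.05 to 7.56 in abdominal high-phosphate arrays against 8.46 to 8.87 in abdominal chow arrays. In these markers 5 of 11 were called lower in thoracic aorta and 10 of 11 in abdominal aorta, and their part in the fall of the listed genes was not tested. Adventitial fibroblast genes moved likewise, with 2 of 10 lower on high phosphate in thoracic aorta and 7 of 10 in abdominal aorta, and 6 of 10 higher in thoracic than in abdominal aorta on high phosphate. Their mean was 8.46 to 8.85 in thoracic high-phosphate arrays against 8.80 to 8.94 in thoracic chow arrays. In abdominal aorta no high-phosphate array was above 8.21 and no chow array was below 8.72. Their part was not tested.

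Averaged over both segments, the diet called 10.7% of all genes (4.53% higher, 6.18% lower). It called 0 of 10 catecholamine genes, 0 of 5 Gi genes, 2 of 12 Gq genes and 1 of 9 kinases, arrestins and RGS proteins. These counts are near that share. Of 22 Gs and cAMP genes it called 5, and of 10 heat-producing and lipolytic genes it called 7. All called genes of these lists were lower on high phosphate. The Gq genes were Plcb3 (-0.36 ± 0.0829, adjusted p = 0.0101) and Plcb1 (-0.31 ± 0.0932, adjusted p = 0.0476), both phospholipases. Prkar2b changed by -1.60 ± 0.200 (adjusted p = 9.74e-05). Without the 5 arrays rich in T and NK cell genes the calls were 0 Gq genes, 1 Gs or cAMP gene, 1 kinase and 3 heat-producing genes, and 12 of 25 alternatives moved the Gq count by over 1.5 times. The Gq count was 1 without any 1 of abdominal high-phosphate arrays 1, 2 and 4, abdominal chow arrays 1 and 2, all thoracic high-phosphate ones, and chow arrays 1 and 4 of that segment. The kinase count was 3 without abdominal high-phosphate array 3 or abdominal chow array 4 and 2 without thoracic chow array 4.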

How the data were processed

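The authors deposited a single value per probe set and array, taken as log2 intensities. RMA and Partek are named in the submitters' processing notes, with no version, role or order, and the log base was inferred from the range of the deposited values, 1.38 to 13.3. The genome build is not given in the sources used here. Of 41345 probe sets, 23521 name exactly 1 gene in the platform annotation, and the brightest per gene by mean over the 15 arrays was used. RNA was amplified with the NuGEN Applause system, per the labels.

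With limma 3.58.1, means of 4 groups were estimated for each of the 22180 genes in R 4.3.3 (eBayes with trend, 11 residual degrees of freedom), with tables read by the package data.table (version 1.17.8), and checked on simulated data. It gave 6 contrasts. No replicate block was used. Named were both receptors and, of each pathway list, up to 4 called genes in each direction by smallest p. Gnaq, Gna11, Gna14, the Gnai genes, Arrb1, Arrb2, Pnmt, Maob and Pde4a were added after their values were seen. The members and lists were chosen with earlier results of these data known. Figures were drawn with matplotlib 3.10.9. Arrays of 1 group correlated at 0.975 to 0.993 across genes. The alternatives were a prior without trend, a dim-gene filter, the compared groups alone, quantile normalization, median centring, array weights, a replicate block, averaged probe sets per gene, an adjusted p under 0.1, and the omission of each array, of 2 arrays with liver genes, and of 5 with T and NK cell genes. Counts of pathway lists under these were added after the data were seen. No sequences are shown, since no result here rests on one.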

Additional observations from a re-analysis of the deposited data

How the results depend on the processing

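Of the 302 values of Adra1b and Adra2c under the alternatives, 298 stayed on the same side of the threshold, and no called value changed sign. The sign changed in 6, none of them called before or after. The exceptions were 4 values of Adra2c between the segments on high phosphate, where the count of receptors called was 1 with quantile normalization, 1 with array weights and 1 with an adjusted p under 0.1, against 0 as reported. Leaving out 1 array in turn gave a count of 0 to 1 there, with 1 only without abdominal chow array 3, and 0 in the other 5 contrasts. Adra2c is below the 30th percentile and has no value under the dim-gene filter. With an adjusted p under 0.1 the fit is the same and only the threshold is looser. Without abdominal chow array 3, which is outside that comparison, the Adra2c difference stayed at -0.30. Its SE was 0.0845, against 0.101 with all arrays. The cause of the other exceptions was not tested. The adjusted p of the abdominal change of Adra1b ran from 0.152 to 0.805 and that of the thoracic change of Adra2c from 0.23 to 0.614.

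The replicate numbers were not taken as pairs. Deviations of same-numbered arrays from their group means correlated at -0.25 to 0.40 over 21 pairs of arrays across genes. Both extremes were pairs across diets, which cannot come from 1 mouse. Pairs of the 2 segments on 1 diet correlated at 0.03 to 0.12 on high phosphate and 0.03 to 0.07 on chow. On the same diet, 2 of 3 thoracic high-phosphate and 2 of 4 thoracic chow arrays correlated best with their own number in abdominal aorta. With a replicate block 0 receptors were called in every contrast. Over all genes the block called 1692 by diet in abdominal aorta and 646 in thoracic aorta, against 1554 and 548 without it. Between segments on high phosphate it gave 3 Gs and cAMP genes higher and 2 lower, against 5 and 3, and 2 Gq genes lower, against 5. By diet it gave 2 Gq genes lower in abdominal aorta, against 1, and 3 heat-producing and lipolytic genes lower in thoracic aorta, against 2. On average it gave 7 Gs and cAMP genes, 3 Gq genes, 2 kinases, arrestins and RGS proteins and 8 heat-producing and lipolytic genes, against 5, 2, 1 and 7. The other pathway counts that were above 0 without the block were equal with and without it.

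Without the 5 arrays rich in T and NK cell genes the calls over all genes were 137 for abdominal diet, 1029 for the average, 43 for the difference between diet changes, 466 between segments on high phosphate and 496 on chow, against 1554, 2376, 0, 3067 and 1061. The compared groups alone gave 1026 for abdominal diet. Array weights gave 907 for thoracic diet, and an adjusted p under 0.1 gave 992 there and 1795 between segments on chow. Omission of 1 array gave 891 to 2249 for abdominal diet, 209 to 605 for thoracic diet, 1695 to 4025 between segments on high phosphate and 500 to 1369 on chow. Both receptor probe sets are dim, and signal over background is unknown, which limits what small differences can show.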
